A study of Homo sapiens with 6 samples.

Results

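The genes described here are 9 genes of MHC class I antigen presentation, HLA-B, HLA-C, HLA-E, B2M, TAP1, TAP2, TAPBP, ERAP1 and NLRC5, matched by symbol among the 60609 genes of the count tables. All 9 were found. HLA-C had a mean normalized count under 5, so 8 of the 9 were among the 19114 genes tested. Poly(A) RNA was sequenced from K562 cells, an established human chronic myeloid leukaemia line known for a very low level of MHC class I. The endogenous EP400 gene of these cells carries a degradation tag, described as homozygous. EP400 is the scaffold and ATPase subunit of the TIP60 complex, which places the histone variant H2A.Z and acetylates histones. The cells were complemented from the AAVS1 site with EP400 that was either wild type (WT) or lacked the SANT and HD domains, through which it holds TRRAP (Delta-TRRAP), and TRRAP is the subunit contacted by transcription factors. All 6 libraries, 3 in each group, came from cells given 500 nM dTAGV-1, the molecule that triggers degradation of the tagged protein, for 24 h. Each complemented line was 1 clone, so clone and genotype cannot be told apart. The replicates are described as biological replicates of these lines, and the p-values measure the spread between them.

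MHC class I molecules show pieces of a cell's own proteins to cytotoxic T cells. Peptides cut by the proteasome are pumped into the endoplasmic reticulum by the TAP1-TAP2 transporter, trimmed by ERAP1, and loaded with the help of tapasin (TAPBP) onto a heavy chain such as HLA-B, HLA-C or HLA-E that is paired with the light chain beta2-microglobulin (B2M). HLA-E mainly displays leader peptides of other class I chains and is read by natural killer cells. NLRC5 is the class I transactivator: it has no DNA-binding domain of its own and acts through the RFX, CREB/ATF and NF-Y factors that sit on the X and Y boxes of class I promoters, while NF-kappaB and interferon regulatory factors bind other elements of the same promoters.

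The promoters of 4 genes whose values are described below are shown as the 250 bases before their start sites, on the strand of the gene, because promoters of this kind are where NLRC5, NF-kappaB and interferon regulatory factors are known to act. They are RefSeq reference sequence of GRCh38 and not the alleles of K562. Capitals mark 3 motifs searched on both strands: GGGGATTC, the kappaB element of class I promoters, TGACG followed by ATTGG, which stand for the X2 and Y boxes, and TTTC repeated after any 2 bases, the core of an interferon element, which reads GAAA on the other strand.
HLA-B, chr6:31357180-31357429, minus strand: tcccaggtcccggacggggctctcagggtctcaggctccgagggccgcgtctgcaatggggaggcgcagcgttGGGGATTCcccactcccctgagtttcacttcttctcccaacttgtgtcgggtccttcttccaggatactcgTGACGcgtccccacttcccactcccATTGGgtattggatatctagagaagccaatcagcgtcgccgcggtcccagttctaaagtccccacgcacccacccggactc
HLA-C, chr6:31272093-31272342, minus strand: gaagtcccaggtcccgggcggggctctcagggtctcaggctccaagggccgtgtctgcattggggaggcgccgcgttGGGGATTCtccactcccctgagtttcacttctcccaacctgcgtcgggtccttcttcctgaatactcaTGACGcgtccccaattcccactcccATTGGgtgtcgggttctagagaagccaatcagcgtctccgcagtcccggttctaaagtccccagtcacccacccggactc
B2M, chr15:44711267-44711516, plus strand: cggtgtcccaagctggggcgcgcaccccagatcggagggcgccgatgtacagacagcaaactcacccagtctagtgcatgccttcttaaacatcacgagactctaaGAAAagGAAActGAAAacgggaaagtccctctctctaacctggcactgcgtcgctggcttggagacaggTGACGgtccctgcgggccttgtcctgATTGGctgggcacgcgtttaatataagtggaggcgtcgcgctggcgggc
TAP1, chr6:32853705-32853954, minus strand: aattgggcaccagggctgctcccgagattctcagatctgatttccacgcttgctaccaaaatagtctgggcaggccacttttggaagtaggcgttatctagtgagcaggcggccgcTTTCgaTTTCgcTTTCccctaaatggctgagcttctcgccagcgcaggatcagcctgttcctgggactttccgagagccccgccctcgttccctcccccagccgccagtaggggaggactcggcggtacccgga

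The RefSeq table held 9 windows for 7 of the 9 genes, from 250 bases before to 50 after a start site. HLA-E and NLRC5 were not matched. The kappaB string GGGGATTC lay in the windows of HLA-B and HLA-C, and in 0.888% of all 35116 windows. The TGACG and ATTGG pair, set 10 to 30 bases apart, lay in those of HLA-B, HLA-C and B2M, and in 0.775% of all windows. The 2 parts were 20 bases apart in HLA-B and HLA-C and 21 in B2M. The interferon pattern lay in the windows of B2M, TAP2 and TAPBP, and in 1 of the 2 windows of TAP1 (the one shown). It also lay in 1 of the 2 windows of ERAP1, where it followed the start site. It lay in 3.57% of all windows, and in B2M, TAP1 and TAPBP it came as 2 overlapping matches. Over the 250 bases shown, HLA-B and HLA-C were 89% identical, with 20 mismatches and 8 gap positions in the alignment. These matches describe letters in the reference and were not tested as binding sites. Each motif was searched only as the letters given, so a window without a match may hold an element spelled otherwise.

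The 9 genes did not move in one direction. NLRC5 and HLA-B were higher in Delta-TRRAP, from a few reads per library in WT, while TAP1 was lower by more than 2-fold and B2M and HLA-E by less. TAPBP was slightly higher, and ERAP1 and TAP2 did not pass the test. Calls required a fold change of 2 or more and an adjusted p no higher than 0.01 from the edgeR quasi-likelihood test (Benjamini-Hochberg, over all genes tested). By this rule 3 of the 8 tested genes were called, beside 22.6% of all 19114 tested genes. Of these, 2 were higher (NLRC5 and HLA-B), beside 16.5% of all tested genes, and 1 was lower (TAP1), beside 6.08%. NLRC5 had a WT mean under the minimum count of 5, so it was tested only through its Delta-TRRAP libraries. Without regard to the fold change, 6 of the 8 passed the adjusted p, beside 58.3% of all tested genes. Of the 6, 3 were higher (30.7% of all) and 3 were lower (27.6% of all). WT and Delta-TRRAP libraries were fully apart for 6 of the 8 genes, beside 71.1% of all tested genes. The median log2 fold change of the 8 genes was -0.23, with a range from -1.19 to 4.75, and that of all tested genes was 0.03. All fold changes below are Delta-TRRAP over WT.

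**Figure D1:**
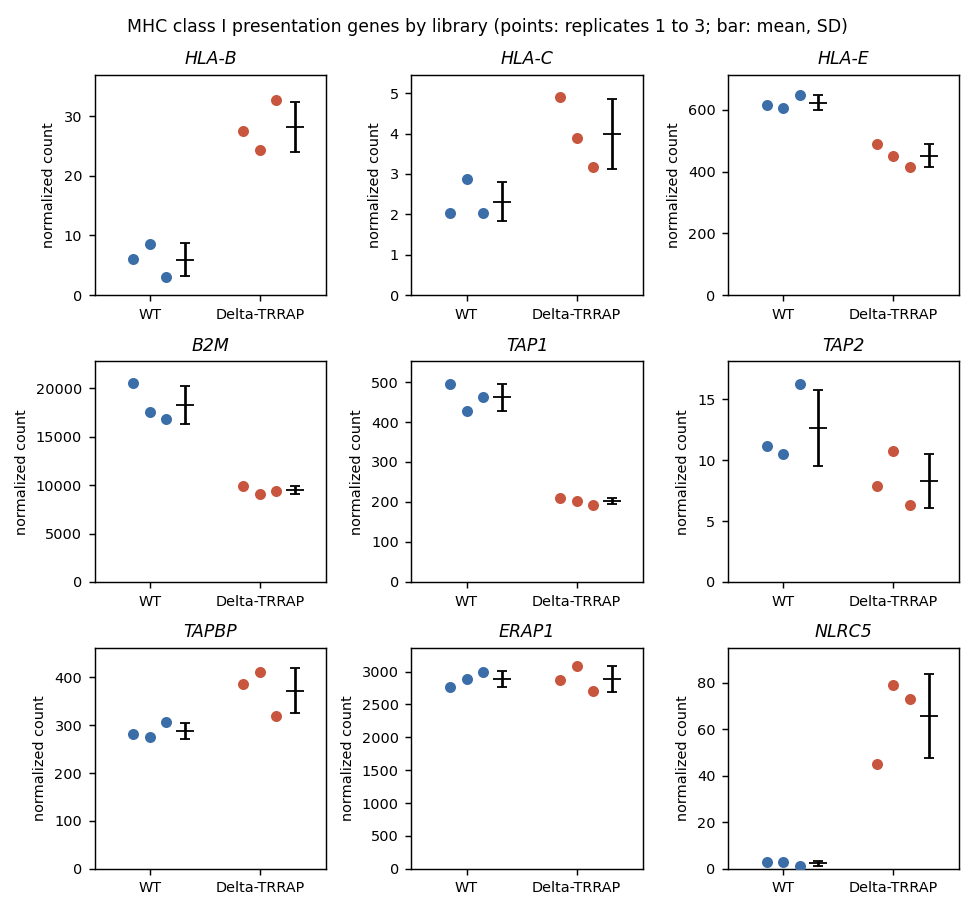
Normalized count of each of the 9 genes (vertical axis, linear from 0, its own scale in each panel) in the 3 WT and 3 Delta-TRRAP libraries (points), with the mean and SD of each group beside them. The groups lie apart for HLA-B, HLA-E, B2M, TAP1 and NLRC5, and by less for HLA-C and TAPBP, while TAP2 and ERAP1 overlap. HLA-B, HLA-C, TAP2 and NLRC5 rest on few reads.

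Of the heavy chains, HLA-E held most of the counts. HLA-B (ENSG00000234745.11, GRCh38 chromosome 6, 31353872 to 31367067, minus strand) had 6, 9 and 3 counts in the WT libraries and 28, 25 and 31 in the Delta-TRRAP libraries. Every Delta-TRRAP library thus lay above every WT library, although the highest held only 31 counts. The normalized count rose from 5.92 ± 2.79 to 28.2 ± 4.26 (SD, n = 3 each), a log2 fold change of 2.21 ± 0.34 (SE) or 4.63-fold, with an edgeR adjusted p of 3.25e-05. The ratio of the summed counts was 4.70, with an exact 95% interval of 2.80 to 8.31, and such intervals cover counting error only. Leaving out each library in turn gave log2 fold changes of 1.90 to 2.58 for HLA-B, called each time.

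HLA-C (ENSG00000204525.16, chromosome 6, 31268749 to 31272130, minus strand) had 2, 3 and 2 counts in WT and 5, 4 and 3 in Delta-TRRAP. Its normalized count was 2.31 ± 0.49 in WT and 3.99 ± 0.87 in Delta-TRRAP (SD, n = 3 each). The ratio of the summed counts was 1.73, with an exact 95% interval of 0.627 to 5.18, so no difference was detectable at this depth, and an increase as large as that of HLA-B lies inside the interval. When tested with no filter on low counts, HLA-C had a log2 fold change of 0.73 and an edgeR adjusted p of 0.476. HLA-B and HLA-C are close copies of each other and of other class I genes, and they are highly variable between people. Reads that mapped to several places had been discarded before counting, so the counts of both are uncertain and may miss reads.

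HLA-E (ENSG00000204592.9, chromosome 6, 30489509 to 30494194, plus strand) had 607, 632 and 639 counts in WT and 499, 462 and 392 in Delta-TRRAP. All 3 Delta-TRRAP libraries were below all 3 WT libraries. Its normalized count fell from 624 ± 23.2 to 451 ± 37.4 (SD, n = 3 each), a log2 fold change of -0.46 ± 0.07 (SE, edgeR adjusted p = 4.03e-05), short of a 2-fold change. HLA-E made up 98.7%, 98.1% and 99.2% of the counts of the 3 heavy chains in the WT libraries and 93.8%, 94.1% and 92.0% in the Delta-TRRAP libraries. The summed heavy-chain counts, 615, 644 and 644 in WT and 532, 491 and 426 in Delta-TRRAP, therefore mostly followed HLA-E. The heavy chain genes HLA-F and HLA-G were almost without reads, with 0 counts and 1 count in all 6 libraries together.

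The light chain gene was by far the most abundant. B2M (ENSG00000166710.20, chromosome 15, 44711358 to 44718851, plus strand) had 20256, 18286 and 16576 counts in WT and 10103, 9326 and 8870 in Delta-TRRAP. The lowest WT library was well above the highest Delta-TRRAP library. The normalized count fell from 18310 ± 1947 to 9460 ± 413 (SD, n = 3 each), a log2 fold change of -0.95 ± 0.07 (SE, edgeR adjusted p = 8.04e-09). The level in Delta-TRRAP was 0.517 of that in WT, just short of the 2-fold threshold. Without WT replicate 3 the log2 fold change of B2M was -1.01 and the gene was called, and without each other library it was not called, over a range of -1.01 to -0.87. Per count of the 3 heavy chains, B2M had 32.9, 28.4 and 25.7 counts in the WT libraries and 19.0, 19.0 and 20.8 in the Delta-TRRAP libraries, and these ranges did not overlap. This ratio depends on HLA-E and was not tested.

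The 2 subunits of the peptide transporter are neighbours on chromosome 6. TAP1 (ENSG00000168394.11, 32845209 to 32853816, minus strand) had 489, 445 and 454 counts in WT and 213, 208 and 183 in Delta-TRRAP, with a wide gap between the groups. Its normalized count fell from 461 ± 34.3 to 202 ± 7.70 (SD, n = 3 each), a log2 fold change of -1.19 ± 0.08 (SE, edgeR adjusted p = 6.84e-09). TAP1 was called in each of the 6 fits without one library, at -1.26 to -1.14. TAP2 (ENSG00000204267.15, 32821833 to 32838739, minus strand) had 11, 11 and 16 counts in WT and 8, 11 and 6 in Delta-TRRAP, and the groups overlapped. Its normalized count was 12.7 ± 3.15 in WT and 8.31 ± 2.22 in Delta-TRRAP (SD, n = 3 each), with a log2 fold change of -0.59 ± 0.36 (SE) and an edgeR adjusted p of 0.161. The ratio of summed TAP2 counts was 0.663, with an exact 95% interval of 0.383 to 1.13, so a fall of the size of TAP1 was within counting error. TAP2 shares 19.5% of its exon bases (GENCODE release 44) on the same strand with a readthrough gene that had 0 counts in all libraries. Reads in bases shared by 2 genes are dropped by the counting mode used, so the counts of TAP2 may be too low.

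TAPBP, the bridge between the transporter and the empty heavy chain, moved the other way. TAPBP (ENSG00000231925.11, chromosome 6, 33299694 to 33314284, minus strand) had 278, 287 and 302 counts in WT and 394, 421 and 302 in Delta-TRRAP. WT replicate 3 and Delta-TRRAP replicate 3 had the same raw count and differed only after scaling. The normalized count rose from 288 ± 16.9 to 372 ± 47.1 (SD, n = 3 each), a log2 fold change of 0.37 ± 0.10 (SE, edgeR adjusted p = 0.00297). This call of the adjusted p was lost in 4 of the 6 fits without one library, with adjusted p-values of 0.0150 and 0.0189 without WT replicates 1 and 2 and 0.0171 and 0.0106 without Delta-TRRAP replicates 1 and 2. The log2 fold change was 0.30 to 0.47 over the 6 fits.

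ERAP1, the aminopeptidase that trims peptides to the length class I holds, had nearly the same mean in both groups. ERAP1 (ENSG00000164307.13, chromosome 5, 96760810 to 96808100, minus strand) had 2732, 3016 and 2948 counts in WT and 2932, 3167 and 2556 in Delta-TRRAP, and the groups overlapped. Its normalized count was 2887 ± 116 in WT and 2889 ± 192 in Delta-TRRAP (SD, n = 3 each). The log2 fold change was 0.0012 ± 0.057 (SE, edgeR adjusted p = 0.987), and it was -0.044 to 0.044 in the fits without one library.

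NLRC5 had the largest fold change of the 9 genes. NLRC5 (ENSG00000140853.15, chromosome 16, 56989485 to 57083531, plus strand) had 3, 3 and 1 counts in WT and 46, 81 and 69 in Delta-TRRAP. It was close to silent in WT and low in Delta-TRRAP. The normalized count rose from 2.31 ± 1.12 to 65.7 ± 18.1 (SD, n = 3 each), a log2 fold change of 4.75 ± 0.39 (SE) or 26.8-fold, with an edgeR adjusted p of 4.25e-08. With 7 counts in all of WT the size of the change is imprecise: the ratio of the summed counts was 28.2, with an exact 95% interval of 13.4 to 71.1. Without each library in turn, the log2 fold change of NLRC5 was 4.41 to 4.96, and the gene was called each time. In bulk RNA, fewer cells with a transcript and less RNA per cell cannot be told apart, so these values do not say how many cells held NLRC5 or HLA-B.

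**Figure D2:**
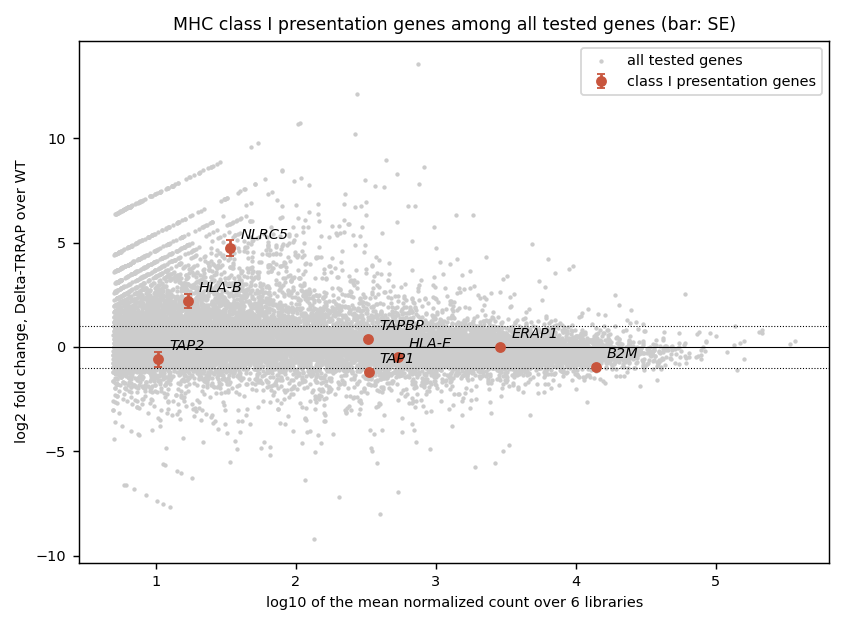
Log2 fold change, Delta-TRRAP over WT (vertical axis), against the log10 mean normalized count over the 6 libraries (horizontal axis) for all 19114 tested genes (grey) and the 8 tested class I presentation genes (red, bars are SE). Dotted lines mark a 2-fold change. NLRC5 and HLA-B lie among genes of low count, where positive fold changes are common, and B2M lies among the abundant genes, just inside the lower line.

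Levels were compared between genes as RPKM, the count per kilobase of exon scaled to the TMM library size. B2M was at 151 ± 16 RPKM in WT and 77.9 ± 3.41 in Delta-TRRAP (SD, n = 3 each), above 98.9% and 97.8% of tested genes. ERAP1 followed at 9.34 and 9.35, and HLA-E at 5.49 and 3.97 RPKM, in WT and Delta-TRRAP. TAP1 was above TAPBP in WT, at 2.50 against 1.11 RPKM, and below it in Delta-TRRAP, at 1.09 against 1.44, with no overlap between the libraries of the 2 genes in either group. The levels of HLA-B, TAP2, HLA-C and NLRC5 in WT were 0.0329, 0.0314, 0.0237 and 0.0048 RPKM, and HLA-B was not apart from TAP2, nor TAP2 from HLA-C. In Delta-TRRAP the levels of HLA-B and NLRC5, 0.157 and 0.136 RPKM, overlapped, and those of HLA-C and TAP2 were 0.0409 and 0.0206 RPKM. In rank, HLA-B was above 6.93% of tested genes in WT and 13.6% in Delta-TRRAP, and NLRC5 above 1.70% and 12.0%. The level of HLA-B may be a low estimate, since 32.7% of the exon bases in release 44 overlap other genes on the same strand. Its exon length of 4623 bases is also that of a release 44 model that reaches beyond the RefSeq start site used above. If the release used for counting lacks that part, the level is too low, and its order beside TAP2 and NLRC5 depends on this length.

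Other genes of the pathway were taken as lists by role, 62 genes of which 42 were tested. Of the 42, 4 were called, 3 higher and 1 lower, a smaller share than the 22.6% of all tested genes. By the adjusted p 26 of the 42 passed, 7 higher and 19 lower, beside 58.3% of all tested genes, with 30.7% higher and 27.6% lower. Their median log2 fold change was -0.16.

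Of 8 class I-like genes whose proteins pair with B2M, 3 were at 0 in all libraries and 2 had enough reads to be tested. MR1, which presents metabolites of microbes to mucosal T cells, had a normalized count of 1099 ± 54.4 in WT and 2225 ± 134 in Delta-TRRAP (SD, n = 3 each), with no overlap. Its log2 fold change was 1.02 ± 0.06 (SE, edgeR adjusted p = 7.95e-10). The fold change lay at the threshold, and MR1 was no longer called without WT replicate 2 (0.98), without Delta-TRRAP replicate 1 (0.99), without Delta-TRRAP replicate 2 (0.99) and with no filter on low counts (0.99), while its adjusted p still passed. HFE, a regulator of iron uptake, was at 88.6 ± 1.39 and 101.1 ± 5.65 normalized counts (SD, n = 3 each), with a log2 fold change of 0.19 ± 0.12 (SE) and an edgeR adjusted p of 0.193. MR1 thus rose in the libraries in which its light chain gene B2M fell. Among the untested genes of this list, chosen after the values were seen, CD1D went from 3 summed counts to 21.

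The chaperones and other trimming enzymes were all tested, 11 of 11, and 0 were called by edgeR or DESeq2. An unadjusted edgeR p under 0.05 was reached by 10, and by at least 58.3% of all tested genes, the share passing the adjusted p. By the edgeR adjusted p of 0.01, 7 of the 11 passed and all 7 were lower, beside 58.3% of all tested genes passing and 27.6% passing as lower. The list median was -0.25. CANX, the lectin chaperone calnexin, changed by -0.26 ± 0.06 (SE) on the log2 scale and HSPA5, the chaperone BiP, by -0.31 ± 0.05 (SE). The edgeR adjusted p of CANX was 0.000955, and it was 0.0514 when libraries were scaled by size alone. LNPEP, an endosomal aminopeptidase named after the values were seen, had the largest change of this list, at -0.98 ± 0.07 (SE).

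Of the 5 genes of the immunoproteasome and its activator, 1 was called, beside 22.6% of all tested genes. PSMB9, an interferon-inducible catalytic subunit (ENSG00000240065.8, chromosome 6, 32844136 to 32859851, plus strand), had a normalized count of 143 ± 9.72 in WT that fell to 48.1 ± 3.60 in Delta-TRRAP (SD, n = 3 each). On the log2 scale PSMB9 changed by -1.56 ± 0.14 (SE, edgeR adjusted p = 7.37e-08). PSMB9 and TAP1 are transcribed away from each other, from RefSeq start sites 488 bases apart, and both were called lower. Counting used strand, so the overlap of the 2 gene models does not mix their reads. No motif of the 3 was found in the PSMB9 window, which starts at 32853942. That window covers only part of the stretch between the 2 start sites, and the interferon matches of TAP1 lie in the part left out. The activator subunits PSME1 and PSME2 changed by 0.24 ± 0.05 (SE) and -0.50 ± 0.06 (SE) on the log2 scale. Both passed the adjusted p, as did 58.3% of all tested genes. Without WT replicate 1, PSME1 had an edgeR adjusted p of 0.0129. PSMB8 and PSMB10, the other inducible catalytic subunits, did not pass.

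**Figure D3:**
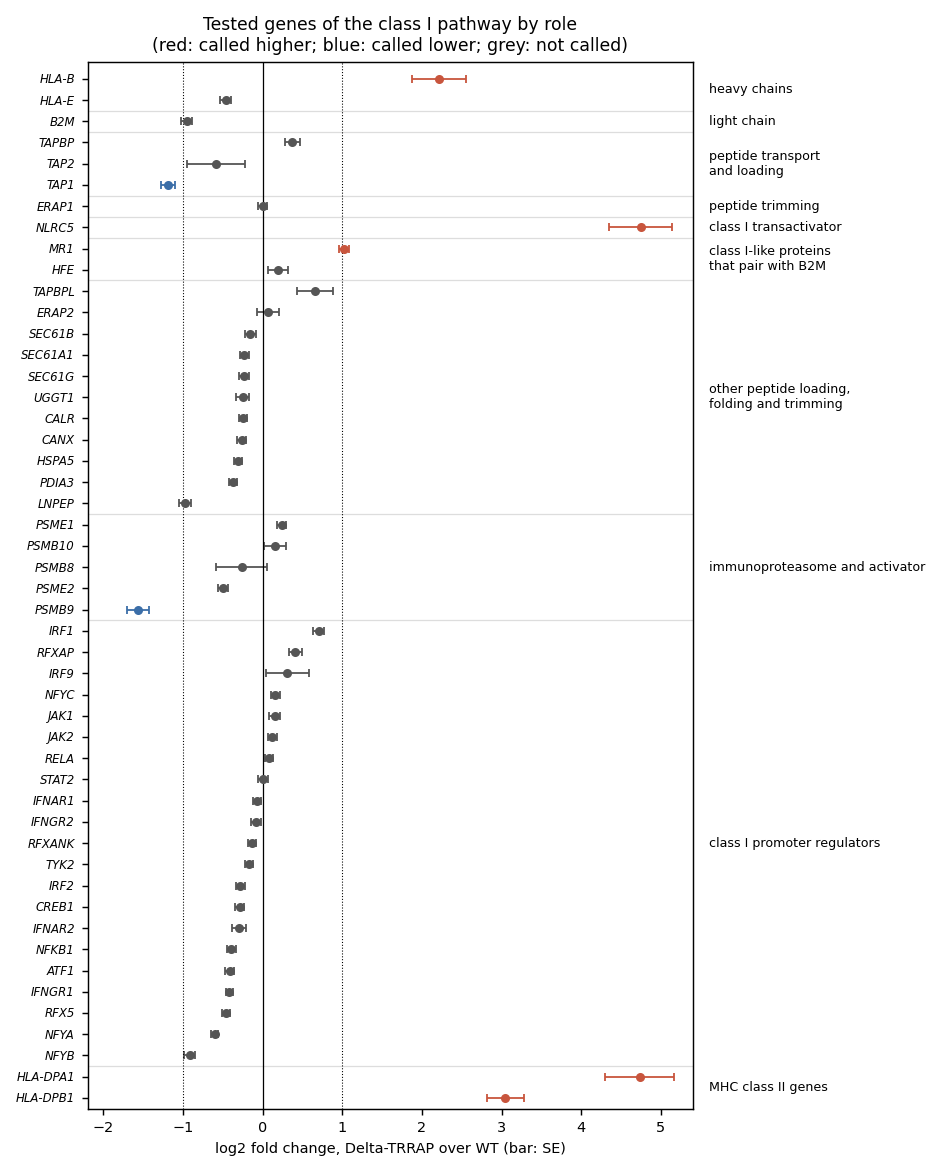
Log2 fold change, Delta-TRRAP over WT (horizontal axis, bars are SE), of tested genes of the class I pathway and of MHC class II, grouped by role (vertical axis). Dotted lines mark a 2-fold change. HLA-B, NLRC5, MR1, HLA-DPA1 and HLA-DPB1 lie to the right as called higher, TAP1 and PSMB9 to the left as called lower, and the chaperones lie between -1 and 1.

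Of 23 regulators of class I promoters, 22 were tested and 0 were called by edgeR or DESeq2. An unadjusted edgeR p under 0.05 was reached by 17, and by at least 58.3% of all tested genes, the share passing the adjusted p. By the edgeR adjusted p, 13 of the 22 passed, 3 higher and 10 lower, close to the 58.3% of all tested genes that passed. The list median was -0.11. JAK1, a kinase of the interferon receptors and the gene of the list with the most counts (not corrected for length), had a log2 fold change of 0.15 ± 0.07 (SE, edgeR adjusted p = 0.063). JAK1 passed the adjusted p when scaled by library size (0.28 on the log2 scale), with a minimum count of 50 (0.22) and without Delta-TRRAP replicate 3 (0.21). The factors that NLRC5 works through were singled out after the values were seen. NFYB and NFYA, subunits of the Y box factor, changed by -0.92 ± 0.07 (SE) and -0.61 ± 0.05 (SE), and RFX5 by -0.46 ± 0.05 (SE), while RFXAP changed by 0.41 ± 0.08 (SE). The CREB/ATF factors CREB1 and ATF1 changed by -0.29 ± 0.06 (SE) and -0.42 ± 0.05 (SE). The remaining subunits did not pass: NFYC had a log2 fold change of 0.16 ± 0.05 (SE, edgeR adjusted p = 0.0167) and RFXANK of -0.13 ± 0.05 (SE, edgeR adjusted p = 0.0423). IRF1, an interferon regulatory factor, changed by 0.70 ± 0.07 (SE), from 485 ± 22.8 to 788 ± 38.3 normalized counts (SD, n = 3 each). NFYB, NFYA, RFX5, RFXAP, CREB1, ATF1 and IRF1 passed the edgeR adjusted p, and none of them reached a 2-fold change.

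MHC class II genes, which present outside proteins and are normally kept to immune cells, were almost silent, with 6 of 12 at 0 in all libraries and 2 tested. Both tested genes were called higher, beside 16.5% of all tested genes. HLA-DPA1 had a WT mean of 0.997 normalized counts, so it was tested only through its Delta-TRRAP libraries. HLA-DPA1 (ENSG00000231389.7, chromosome 6, 33064569 to 33080775, minus strand) had 1 count in each WT library and 89 counts over the Delta-TRRAP libraries. The ratio was 29.9, with an exact 95% interval of 9.90 to 148, and the edgeR adjusted p was 1.18e-07. HLA-DPB1 (ENSG00000223865.11, chromosome 6, 33075990 to 33089696, plus strand) rose from 8.63 ± 2.56 to 72.3 ± 4.28 normalized counts (SD, n = 3 each), a log2 fold change of 3.05 ± 0.23 (SE, edgeR adjusted p = 1.76e-08). The 2 genes code for the chains of 1 heterodimer and overlap on opposite strands. CIITA, the class II transactivator and closest relative of NLRC5 in function, summed to 3 counts in the WT libraries and 6 in the others, and the HLA-DR genes in the list had 0 in all libraries. CIITA and the HLA-DR genes were named after their values were seen.

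Marker genes were read beside these results, because class I and II levels differ between cell types. The labels call the cells lymphoblasts, and the erythroid list had the largest sum of the marker lists. All 9 erythroid and K562 markers were tested, and their summed level was 5719 to 5781 CPM (counts scaled to the TMM library size) in WT and 3476 to 3602 in Delta-TRRAP. Most of this sum was TFRC, the transferrin receptor: without it, a step added after the values were seen, the other 8 summed to 764 to 841 CPM in WT and 1133 to 1274 in Delta-TRRAP, so the direction turned. GATA1, the erythroid master regulator, had 6605 ± 218 normalized counts in WT and 5815 ± 211 in Delta-TRRAP (SD, n = 3 each). Of the 9, HBE1 and HBZ were called higher and TFRC lower, beside 16.5% and 6.08% of all tested genes. The 8 leukocyte markers summed to 632 to 653 CPM in WT and 129 to 143 in Delta-TRRAP. Of the 6 tested, PTPRC and LYZ were called lower, at -2.03 ± 0.06 and -3.27 ± 0.06 (SE) on the log2 scale. In WT these 2 genes had 16076 ± 295 and 8458 ± 413 normalized counts (SD, n = 3), each more than GATA1. The B cell marker MS4A1 was at 0 in all libraries. The 9 fibroblast markers summed to 0.912 to 1.49 CPM in WT and 23.4 to 25.0 in Delta-TRRAP, with LUM and PDGFRA at 0 in all libraries. Of the 4 tested, COL1A2 and PDGFRB were called higher. Their WT means were under the minimum count of 5, so they were tested only through their Delta-TRRAP libraries. For COL1A2 the summed counts were 5 in WT and 2622 in Delta-TRRAP, so most of the Delta-TRRAP sum was COL1A2. Among the others, summed in the same order, COL3A1 had 2 and 28 and PDGFRB 5 and 28. COL1A1 had 86 and 89, DCN 35 and 26, FAP 2 and 0 and THY1 0 and 1. The mitochondrial share of counts was 3.18% to 3.71% for WT and 5.07% to 6.24% for Delta-TRRAP, and library totals ranged from 35076835 to 42616061 counts. The part of cell type markers, mitochondrial share and clone in the class I values was not tested.

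The genes near the 9 loci were also examined. Of 118 other tested genes within 500 kb of any of the 9, 17 (14.4%) were called, 12 higher and 5 lower, beside 22.6% of all tested genes (16.5% higher and 6.08% lower), with a median log2 fold change of 0.13. Around the 6 genes of the 9 on chromosome 6, 10 of 71 (14.1%) were called, 5 in each direction, with a median of 0.05. Around B2M, 5 of 16 were called and all 5 were higher, with a median of 0.59, so B2M fell among neighbours whose median was positive. The largest changes among the 17 were those of MT4, PCSK1, HLA-DPA1, TRIM10 and DUOX1, all from few or no reads in WT. MT4, a metallothionein near NLRC5, was without counts in WT (0) and had 122 in the Delta-TRRAP libraries together, and PCSK1, a prohormone convertase near ERAP1, had 0 and 40. TRIM10, near HLA-E, had 5 and 85, and DUOX1, an oxidase gene near B2M, had 4 and 49. The edgeR adjusted p was 5.27e-08 for MT4, 1.06e-05 for PCSK1, 5.74e-07 for TRIM10 and 4.36e-05 for DUOX1. Their WT means were under the minimum count of 5, so they were tested only through their Delta-TRRAP libraries. They were also picked by the size of their change, so these p-values lend no further support. MT4 was the only called gene of 23 near NLRC5.

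**Figure D4:**
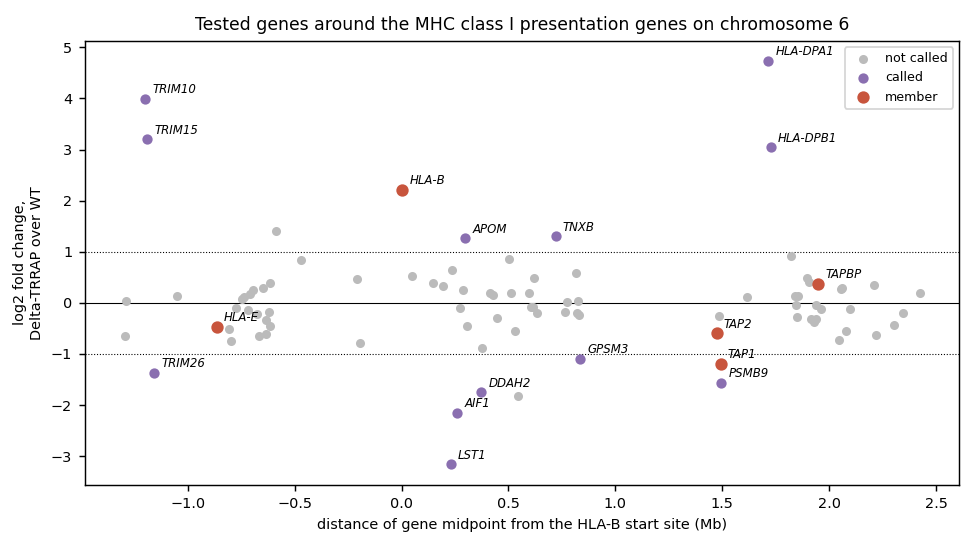
Log2 fold change, Delta-TRRAP over WT (vertical axis), of tested genes on chromosome 6 against the distance of the gene's midpoint from the HLA-B start site in megabases (horizontal axis). Red points are class I presentation genes, purple points other called genes and grey points genes not called, and dotted lines mark a 2-fold change. Called genes of both directions lie along the region, with HLA-B above the upper line and TAP1 beside PSMB9 below the lower line.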

How the data were processed

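Poly(A) RNA of 6 K562 libraries was measured, 3 WT and 3 Delta-TRRAP, grouped by sample title. The authors deposited raw counts of reads per gene, from unique alignments to hg38 by STAR counted with htseq-count (HTSeq 2.0.2, reverse strand, union mode) on GENCODE genes. Discarding reads with several matches lowers the counts of close copies such as the HLA genes. A deposited table of normalized signal, which has 3 columns from another condition, and the authors' table of the comparison (fold changes and p-values) were not used.

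Counts were tested with edgeR 4.0.16 (R 4.3.3), TMM scaling and the quasi-likelihood F test, in a model of group alone. A mean normalized count of 5 or more was required, which left 19114 of 34998 genes with a count. Calls needed an adjusted p (Benjamini-Hochberg) up to 0.01 together with a 2-fold change. The study used these thresholds with DESeq2. To normalize, each count was divided by its library's TMM size over the geometric mean of all 6. SDs are over 3 libraries, and SEs of log2 fold changes are the fold change divided by the root of the F statistic. Intervals of count ratios are exact and cover counting error only. Positions and exon lengths are from GENCODE release 44 on GRCh38, which matched 19041 tested genes and is not the release of the authors. Promoters are from RefSeq (GRCh38).

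Besides all 9 genes, up to 4 called genes and the 2 most abundant uncalled genes of each pathway list were named, and up to 5 called genes near the 9. Other genes were named after their values were seen, and single values of some listed genes are not reported here. The genes and lists were chosen with earlier results of these data known. Alternatives were DESeq2 1.42.0, other scalings and filters, a fold of 1.5, a replicate block and leaving out each library. The test was checked on simulated data.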

Additional observations from a re-analysis of the deposited data

How the results depend on the processing

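NLRC5, HLA-B and TAP1 were called with DESeq2, RLE or library size scaling, no filter on low counts, a fold of 1.5, the replicate block and without each library. With a minimum mean normalized count of 50, NLRC5 and HLA-B were too low to be tested, so 1 of the 9 genes was called, with 2 of the other pathway genes and 1964 of 12699 genes in all. At a fold of 1.5, 4 of the 9 genes (with B2M added), 8 of the other pathway genes and 6750 genes were called. DESeq2 called 3983 genes. Library size scaling called 4521, with 3599 of them higher, and shifted the median over all genes from 0.03 to 0.17 (log2). Across the fits without one library, 3 to 4 of the 9 genes, 3 to 5 of the other pathway genes and 4016 to 4263 genes were called. Same-numbered libraries did not visibly deviate together (correlations of 0.011, -0.057 and -0.085). Such correlations cannot exclude a weak batch shared by number, and the main model did not pair the libraries. With the replicate block, 3 of the 9 genes, 4 of the other pathway genes and 4184 genes were called. Over 30 genes refitted under the alternatives, 334 log2 fold changes kept their sign and side of the adjusted p, 6 no longer passed it (TAPBP, PSME1 and CANX), 3 newly passed it (JAK1), and 8 changed sign without passing it in either fit (ERAP1). Depth limits HLA-C, TAP2 and the WT levels of HLA-B and NLRC5, which rest on 1 to 16 counts per library.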
